A study of Homo sapiens with 20 samples.

Results

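The RNA of 35 genes of sterol and fatty acid synthesis was followed in 5 human tumor cell lines treated with the tankyrase inhibitor G007-LK. The 35 genes were chosen by symbol, and each was found in the expression table, which holds 21201 gene symbols in all. They fall into 7 genes of the mevalonate steps, 11 of the steps from squalene to cholesterol, 5 regulators of the SREBP transcription factors, 1 sterol carrier, 8 genes of fatty acid synthesis and 3 targets of the liver X receptors (LXR). G007-LK blocks the poly-ADP-ribosylating enzymes tankyrase 1 and tankyrase 2 (TNKS1/2) and is studied as an inhibitor of WNT/β-catenin signaling. COLO 320DM (colon), UO-31 (renal), OVCAR-4 (ovarian) and ABC-1 (lung) are the tankyrase inhibitor (TNKSi)-sensitive lines of the study, and RKO (colon) is its TNKSi-insensitive control. Each line was exposed for 24 h to 1 µM G007-LK or to 0.01% DMSO as the vehicle control. Every one of these 10 groups had 2 libraries of poly(A) RNA, stated to be biological replicates, which gives 20 libraries. ABC-1 and RKO were grown in EMEM and the other lines in RPMI-1640, both with fetal bovine serum, so that line and medium cannot be told apart.

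Cells make cholesterol from acetyl-CoA through mevalonate, isoprenoids and squalene. Fatty acids are made from the same acetyl-CoA by carboxylation, elongation and desaturation. When membrane sterols are low, the SREBP precursors leave the endoplasmic reticulum with their escort SCAP, are cleaved, and switch on the genes of both pathways. INSIG proteins hold SCAP back when sterols are plentiful. Oxysterols activate LXR, which raises cholesterol exporters, the LDL receptor ligase MYLIP and SREBF1. The comparison asks which of these branches moved with tankyrase inhibition, and whether the sensitive lines differed from RKO.

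The authors deposited RPKM, the reads of a gene divided by its length and by the mapped reads of the library. Each value was a whole multiple of what 1 read was worth, so that whole reads could be recovered for 20621 of 20623 genes with a value (tolerance 0.03 reads) and for all 35 members. The libraries held 25074047 to 26873642 reads in genes. The library total by which the RPKM had been divided ranged more widely, from 0.406 to 1 relative to the first DMSO library of COLO 320DM, and libraries of 1 group were shifted as a whole. Over the 10 groups, the median log2 difference of the second library from the first ran from -0.29, with G007-LK in UO-31, to 0.17, with DMSO in COLO 320DM, where the log2 ratios of the totals were -0.30 and 0.23. The shift did not follow the totals in every group, as with G007-LK in COLO 320DM (-0.09 beside -0.01). Values were therefore divided by 1 median ratio factor per library, which left replicate medians apart by at most 0.0103. Unless stated otherwise, levels below are such scaled RPKM, made comparable within a line only. Fold changes are on the scale of log2(scaled RPKM + 0.5), G007-LK minus DMSO, ± standard error, tested with limma at a Benjamini-Hochberg adjusted p under 0.05 over all genes of the line with a mean RPKM of at least 1. Of tissue markers, on a scale shared by all lines, CDX2 was at 842 in DMSO-treated COLO 320DM and 8.06 in RKO. PAX8 was at 68.2 in UO-31 and 46.2 in OVCAR-4, while the lung markers NAPSA and SFTPB were at 0.198 and 0.0534 in ABC-1. The colon markers CDH17 and KRT20 were at 4.84 and 4.04 in COLO 320DM but 0.0054 and 0.033 in RKO. VIL1, another colon marker, was at 0.0385 in COLO 320DM, 0.0292 in RKO and 2.06 in OVCAR-4. Among ovarian markers, MUC16 was at 4.50, MSLN at 2.67 and WT1 at 0.054 in OVCAR-4, with MSLN at 141 in ABC-1. CDH6, a kidney marker, was at 5.16 in UO-31 and 56.3 in OVCAR-4. KRT7, listed for lung, was at 5.51 in ABC-1 and 2019 in OVCAR-4.

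In COLO 320DM, 23 of the 33 members tested were higher with G007-LK and none was lower, beside 22.5% of all genes tested that were higher and 16.8% that were lower. In RKO, 20 of 32 were higher and none lower, in a line where 1.65% of all genes tested were higher and 0.922% lower. In OVCAR-4, 18 of 35 were higher and 7 lower (25.0% and 22.0% of all genes). In ABC-1, 17 of 31 were higher and 7 lower (33.8% and 30.1%). In UO-31, 9 of 34 were higher and 1, ELOVL6, was lower (16.6% and 13.6%). Calls in either direction made up 39.3% of all genes tested in COLO 320DM, 2.58% in RKO, 47.0% in OVCAR-4, 64.0% in ABC-1 and 30.2% in UO-31. The shares of each line apply as well to the counts by role below. The members' median log2 fold change was 0.35 in COLO 320DM, 0.21 in RKO, 0.19 in ABC-1, 0.10 in OVCAR-4 and 0.05 in UO-31, and that of all genes tested lay between 0.003 in RKO and 0.04 in COLO 320DM. Of the 165 pairs of member and line that were tested, 87 were higher and 15 lower. SCAP was called in no line. At an unadjusted p under 0.05, and with limma's voom on the recovered reads, still 0 members were lower in COLO 320DM and in RKO.

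**Figure D1:**
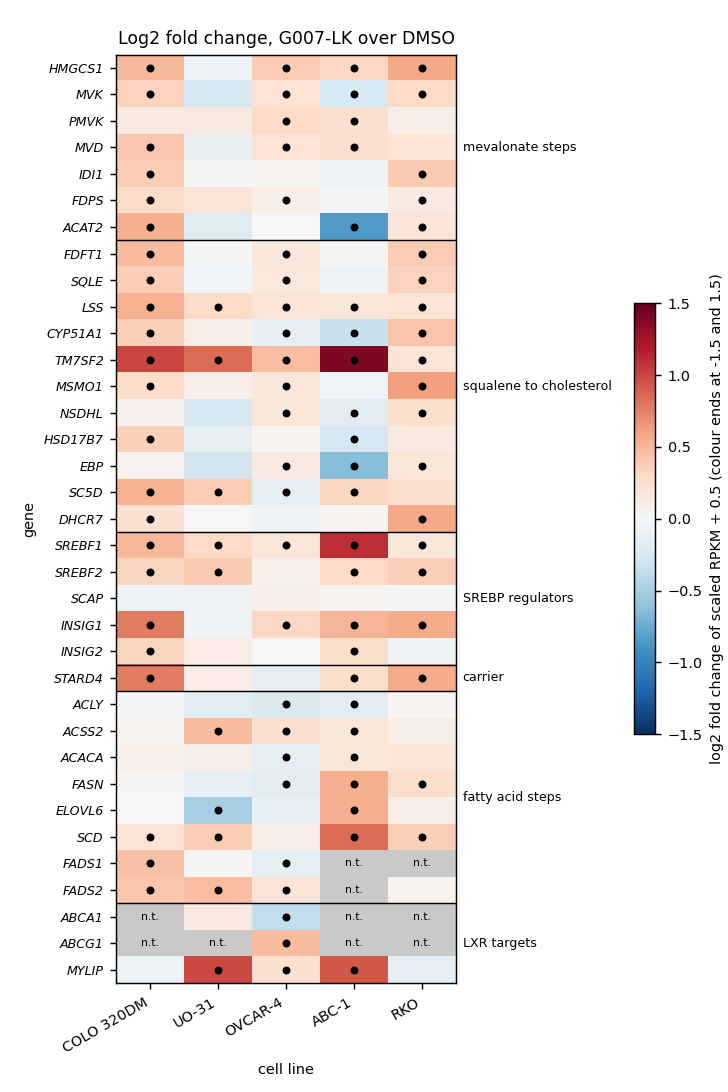
Log2 fold change of each of the 35 genes (rows) in each cell line (columns), G007-LK over DMSO, 2 libraries per group, with a dot where the adjusted p was under 0.05 and n.t. where the gene was not tested. The columns of COLO 320DM and RKO hold no blue cell with a dot, TM7SF2, LSS and SREBF1 carry a dot in every line, and the sterol rows of ABC-1 run from 1.40 (TM7SF2) to -0.86 (ACAT2).

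These counts depended on the scaling and on single libraries. On the RPKM as deposited, 14 of the 23 calls in COLO 320DM held, 18 of the 20 in RKO, 13 of the 25 in OVCAR-4, 14 of the 24 in ABC-1 and 4 of the 10 in UO-31. The calls that ended there in COLO 320DM were those of MVK, FDPS, CYP51A1, MSMO1, HSD17B7, DHCR7, SREBF2, INSIG2 and SCD (adjusted p 0.0526 to 0.327). In ABC-1 they were those of HMGCS1, PMVK, MVD, LSS, SC5D, SREBF2, INSIG2, STARD4, ACSS2 and ACACA, whose values were then at most 0.15 (adjusted p 0.108 to 0.966). In OVCAR-4 they were those of MVK, MVD, FDPS, FDFT1, SQLE, LSS, MSMO1, NSDHL, EBP, SREBF1, FADS2 and MYLIP, with values of at most 0.11 (0.0768 to 0.846). In UO-31 the calls of LSS, SC5D, SREBF1, SREBF2, ACSS2 and SCD ended (0.179 to 0.582), and in RKO those of LSS and SREBF1 (0.0505 and 0.0585). The split of calls then turned to 7 higher and 13 lower in ABC-1 and to 6 and 11 in OVCAR-4, with the median of all genes tested at -0.139 and -0.106 there. In UO-31 it was 3 and 1. With equal sums of RPKM, OVCAR-4 had 12 higher and 10 lower calls, ABC-1 had 14 and 7, UO-31 had 7 and 4, COLO 320DM had 23 and 0, and RKO had 20 and 0. Whichever library was left out, 18 calls held in COLO 320DM, 12 in RKO, 15 in OVCAR-4, 15 in ABC-1 and 2, those of TM7SF2 and MYLIP, in UO-31. Without the first or the second DMSO library of UO-31, 4 and 3 members were called there, and without the first or the second G007-LK library 18 and 24. In OVCAR-4 the lowest count, 16, came without the second DMSO library, and in RKO the lowest, 12, without the first G007-LK library.

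The mevalonate steps turn acetyl-CoA into farnesyl diphosphate. Of their 7 genes, 6 rose in COLO 320DM, 5 in RKO, 5 in OVCAR-4 and 3 in ABC-1, where MVK and ACAT2 fell, and none was called in UO-31 by limma, where 1 was higher and 2 were lower at an unadjusted p under 0.05 and voom called the 2 lower. HMGCS1, the cytosolic HMG-CoA synthase, stood at 7.81 and 7.93 in the DMSO libraries of RKO and at 11.5 and 12.4 with G007-LK. The change in RKO was 0.57 ± 0.05 (adjusted p = 0.000339). In COLO 320DM, HMGCS1 went from 22.2 and 24.5 to 34.3 and 31.6, a change of 0.49 ± 0.07 (adjusted p = 0.00114). In OVCAR-4 it went from 95.3 and 97.5 to 127 and 125 (0.39 ± 0.03, adjusted p = 1.12e-05), and in ABC-1 from 59.1 and 63.2 to 79.8 and 72.5 (0.31 ± 0.06, adjusted p = 0.000331). In these 4 lines both treated libraries lay above both controls. In ABC-1 the groups overlapped on the deposited scale, with 60.7 and 70.0 against 76.3 and 66.7, and the change of 0.13 did not pass (adjusted p = 0.108). In UO-31 the groups overlapped, with 21.4 and 19.9 in DMSO and 21.5 and 18.3 with G007-LK (-0.06 ± 0.10, adjusted p = 0.683).

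IDI1, the isopentenyl diphosphate isomerase, was called in COLO 320DM and RKO only, and its change there was 0.37 ± 0.06 and 0.39 ± 0.03. Its value lay between -0.06 and 0.03 in ABC-1, UO-31 and OVCAR-4. MVD, the mevalonate diphosphate decarboxylase, rose in COLO 320DM (0.41 ± 0.09), ABC-1 (0.26 ± 0.07) and OVCAR-4 (0.21 ± 0.04), on the deposited scale with a call in COLO 320DM alone. Its value of 0.21 ± 0.06 in RKO did not pass the test (adjusted p = 0.103). PMVK, the phosphomevalonate kinase, rose in OVCAR-4 (0.30 ± 0.04) and ABC-1 (0.24 ± 0.05), where it was at 0.06 on the deposited scale (adjusted p = 0.516). FDPS, the farnesyl diphosphate synthase, rose by 0.28 in COLO 320DM, 0.13 in RKO and 0.10 in OVCAR-4. FDPS has 8 named pseudogenes and IDI1 has 3, whose reads the alignment could have shared with the parent gene. The same limit holds for CYP51A1, with 3 named pseudogenes, HSD17B7, with 2, and SCD, with 1. On the deposited scale FDPS in OVCAR-4 was at -0.02. The calls of FDPS ended without the first G007-LK library of COLO 320DM (adjusted p = 0.0704), without the second DMSO library of OVCAR-4 (0.159), or with any RKO library left out (0.0650 to 0.116).

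MVK and ACAT2 moved in opposite directions between lines. MVK, the mevalonate kinase, rose by 0.35 ± 0.09 in COLO 320DM, 0.30 ± 0.05 in RKO and 0.22 ± 0.07 in OVCAR-4, and fell in ABC-1, where its log2 fold change was -0.23 ± 0.06 (adjusted p = 0.00355). ACAT2, the cytosolic thiolase that joins 2 acetyl-CoA, went from 39.9 and 37.2 to 57.2 and 54.4 in COLO 320DM (0.53 ± 0.06, adjusted p = 0.000362). In ABC-1 it went from 44.8 and 46.9 to 24.2 and 26.1 (-0.86 ± 0.06, adjusted p = 9.47e-09). Treated and control libraries were far apart in both lines, on opposite sides. ACAT2 overlaps TCP1, a chaperonin subunit on the other strand, whose values were -0.35 in COLO 320DM and -0.56 in ABC-1, and SOD2, also on the other strand, at -0.45 in ABC-1 and 0.10 in COLO 320DM. MVK overlaps MMAB on the other strand, at 0.19 in COLO 320DM, 0.38 in RKO and -0.19 in ABC-1. No source used here says whether the libraries kept strand, so the reads of such neighbours cannot be told apart. The call of MVK in ABC-1 ended without the first G007-LK library (adjusted p = 0.0573), its call in OVCAR-4 without the second library of either group (0.158 and 0.131), and its call in RKO without the first DMSO library or either G007-LK library (0.0967, 0.0844 and 0.0748). That of ACAT2 in RKO ended without the second DMSO or the first G007-LK library (0.0530 and 0.0633).

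The steps from squalene to cholesterol are carried by 11 members. Of these, 9 rose in COLO 320DM, 9 in RKO, 7 in OVCAR-4, 3 in ABC-1 and 3 in UO-31. CYP51A1 and SC5D fell in OVCAR-4, and CYP51A1, NSDHL, HSD17B7 and EBP fell in ABC-1. Together with the mevalonate steps, 15 of the 18 sterol genes rose in COLO 320DM, 14 in RKO, 12 in OVCAR-4, 6 in ABC-1 and 3 in UO-31. In ABC-1 and UO-31 these counts are near the shares of all genes called higher (33.8% and 16.6%). The median log2 fold change of the 18 was 0.36 in COLO 320DM, 0.25 in RKO, 0.16 in OVCAR-4, -0.02 in UO-31 and -0.03 in ABC-1. All 18 had a value above 0 in COLO 320DM and in RKO, against 15 in OVCAR-4 and 8 each in UO-31 and ABC-1. On the deposited scale the 18 held 1 higher and 12 lower calls in ABC-1 (median -0.21) and 3 and 4 in OVCAR-4 (median 0.04). In COLO 320DM they held 9 higher calls and in RKO 13, with no lower one.

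TM7SF2, a sterol C14 reductase of the endoplasmic reticulum (GRCh37, chr11:64879317-64883856, plus strand), rose in every line and by more than any other member in COLO 320DM and in ABC-1. In ABC-1 it went from 47.0 and 41.8 to 116 and 120.1 (1.40 ± 0.06, adjusted p = 9.90e-11). In COLO 320DM it went from 12.0 and 10.4 to 22.8 and 22.9 (1.00 ± 0.08, adjusted p = 3.63e-05). The treated libraries were about at the same level as each other and well above the controls. In UO-31 the values were 32.9 and 29.6 in DMSO and 49.5 and 64.0 with G007-LK, further apart but still not overlapping (0.84 ± 0.12, adjusted p = 0.00291). In OVCAR-4 TM7SF2 went from 39.0 and 37.7 to 49.6 and 57.2 (0.47 ± 0.06, adjusted p = 0.000295). In RKO it went from 13.8 and 13.7 to 16.4 and 15.5 (0.21 ± 0.04, adjusted p = 0.0287), and this call was lost when either DMSO library or the first G007-LK library was left out (adjusted p = 0.0961, 0.128 and 0.154). The 4 sensitive lines fitted together gave 0.93 ± 0.10 (adjusted p = 7.38e-06). That error is over libraries and does not measure the spread over the lines, whose own values ran from 0.47 to 1.40. TM7SF2 overlaps VPS51, a vesicle tethering gene on the same strand, whose log2 fold change was 0.31 in UO-31, 0.23 in OVCAR-4, 0.27 in ABC-1, -0.07 in RKO and -0.001 in COLO 320DM.

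LSS, the lanosterol synthase that closes the sterol rings, was the other sterol gene called higher in each of the lines. It rose by 0.53 ± 0.06 in COLO 320DM, 0.29 ± 0.07 in UO-31, 0.20 ± 0.04 in RKO, 0.19 ± 0.03 in OVCAR-4 and 0.18 ± 0.06 in ABC-1. On the deposited scale LSS kept its call in COLO 320DM alone, with -0.005 in ABC-1, 0.07 in OVCAR-4, 0.21 in UO-31 and 0.17 in RKO (adjusted p = 0.966, 0.157, 0.490 and 0.0505). The scaled call in ABC-1 also ended without the first DMSO library or the second G007-LK library (adjusted p = 0.0765 and 0.192). In UO-31 it ended without either DMSO library (adjusted p = 0.239 and 0.259), and in RKO without the second DMSO library or either G007-LK library (adjusted p = 0.199, 0.150 and 0.137).

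Several late sterol genes moved most in RKO. MSMO1, the sterol C4 methyl oxidase, went from 19.7 and 21.8 to 32.1 and 31.9 in RKO (0.61 ± 0.05, adjusted p = 0.000181). DHCR7, which makes cholesterol from its last precursor, went from 6.57 and 6.56 to 9.95 and 10.1 in RKO (0.57 ± 0.04, adjusted p = 0.000213). In both cases the treated and the control libraries formed tight and separate pairs. In COLO 320DM, MSMO1 rose by 0.27 ± 0.06 and DHCR7 by 0.23 ± 0.06, and both calls ended without the first G007-LK library (adjusted p = 0.0814 and 0.0992) or the second (0.0506 and 0.0933). DHCR7 lay between -0.05 and 0.02 in the other 3 lines, with overlapping libraries in UO-31 and ABC-1.

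SQLE, the squalene epoxidase, and FDFT1, the squalene synthase, behaved alike in number: SQLE rose by 0.37 ± 0.06 in COLO 320DM, 0.35 ± 0.03 in RKO and 0.15 ± 0.04 in OVCAR-4, and FDFT1 by 0.47 ± 0.05, 0.38 ± 0.03 and 0.17 ± 0.03. Neither passed the test in UO-31 or ABC-1. CYP51A1, the lanosterol demethylase, went from 42.7 and 44.2 to 59.1 and 58.3 in RKO (0.43 ± 0.03, adjusted p = 0.000104). In ABC-1 it went from 42.3 and 43.8 to 35.0 and 33.3 (-0.33 ± 0.06, adjusted p = 0.000117). CYP51A1 overlaps AKAP9 on the other strand, at -0.06 in RKO and 0.16 in ABC-1, and at -0.21 in OVCAR-4, where CYP51A1 was at -0.12. The same transcript thus stood above its controls in one line and below them in another. EBP, the sterol isomerase, fell most among the late steps in ABC-1, from 87.6 and 84.2 to 52.9 and 57.3 (-0.64 ± 0.06, adjusted p = 1.37e-07), and rose in RKO (0.18 ± 0.03) and OVCAR-4 (0.13 ± 0.03). NSDHL, of the C4 demethylation complex, rose in RKO (0.26 ± 0.04) and OVCAR-4 (0.18 ± 0.04) and was lower in ABC-1 (-0.16 ± 0.05). HSD17B7, of the same complex, rose in COLO 320DM (0.36 ± 0.07) and was lower in ABC-1 (-0.26 ± 0.09). SC5D, the sterol C5 desaturase, rose in COLO 320DM (0.52 ± 0.08), UO-31 (0.38 ± 0.11) and ABC-1 (0.33 ± 0.06) and was lower in OVCAR-4 (-0.14 ± 0.05). SC5D was at 0.15 in ABC-1 and 0.31 in UO-31 on the deposited scale, with neither called (adjusted p = 0.165 and 0.374). Several calls on these smaller changes ended when 1 library was left out, which leaves a group of 1. The values kept their signs. NSDHL in ABC-1 was then at -0.15, -0.14 and -0.17, and SC5D in UO-31 at 0.46 and 0.29. In ABC-1, NSDHL lost its call without the second DMSO library or either G007-LK library (adjusted p = 0.0752, 0.131 and 0.0632), and HSD17B7 without the first library of either group (0.145 and 0.158). SC5D lost it in UO-31 without either DMSO library (0.0549 and 0.301) and in OVCAR-4 without the second library of either group (0.138 and 0.142). In OVCAR-4, CYP51A1 and MSMO1 lost it without the second DMSO library (0.0677 and 0.0526), and SQLE without the first library of either group (0.0927 and 0.0882). In RKO, NSDHL lost it without the first library of either group (0.0589 and 0.0678), and EBP without the first DMSO library or either G007-LK library (0.0660, 0.0560 and 0.0674).

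**Figure D2:**
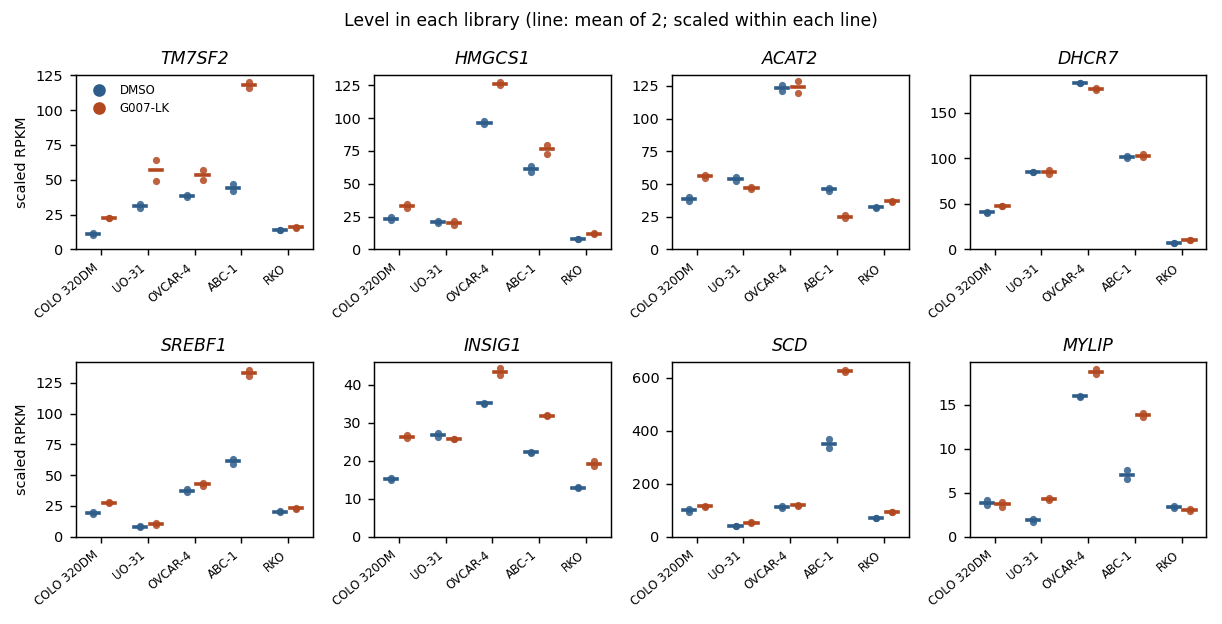
Scaled RPKM of 8 members in each library, with DMSO in blue, G007-LK in orange and a line at the mean of 2, on linear axes from 0 and scaled within each line. TM7SF2 and SREBF1 lie higher with G007-LK in every line, ACAT2 goes up in COLO 320DM and down in ABC-1, and the low level of DHCR7 in RKO goes from 6.57 and 6.56 to 9.95 and 10.1.

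Windows of the RefSeq promoter table (build GRCh38.p14, 250 bases before to 50 after the start of a gene) were found for 30 members, and the windows of FDFT1, SQLE, ACAT2, FASN and ABCG1 were not analysed here. Letters of known sites were searched on both strands. A member was counted when any of its windows matched, while the shares of all windows count each window singly. A gene with several windows has more places for a match, so the member shares and the window shares are not directly comparable. The classical sterol regulatory element, whose 10 letters are the capitals of the first sequence, was found in 1 member, SREBF2, and in 0.0456% of all 35116 windows. A looser core of it was also found in SREBF2 alone, and in 1.13% of all windows. The letters of an LXR site, a spaced direct repeat, were found in 0 members and in 0.0854% of all windows. Sites that differ from the searched letters are missed, so a member without a match may still have one. The extended CCAAT box, CCAATCA, was found in 14 of the 30 members (46.7%) and in 6.95% of all windows. The shorter CCAAT, which includes it, was found in 73.3% and 34.6%, the GC box GGGCGG in 96.7% and 45.0%, and the E-box CACGTG in 16.7% and 7.26%. The sterol regulatory element and the CCAAT box are shown because SREBPs bind the former together with the CCAAT-binding factor NF-Y in known sterol promoters. Each sequence has 60 bases, is placed on GRCh38.p14, reads along the strand of its gene, and carries the match in capitals (TGATTGG is CCAATCA read from the other strand).
SREBF2, chr22:41832946-41833005, plus strand, sterol regulatory element: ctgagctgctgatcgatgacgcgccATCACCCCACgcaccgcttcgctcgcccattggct
HMGCS1, chr5:43313537-43313596, minus strand: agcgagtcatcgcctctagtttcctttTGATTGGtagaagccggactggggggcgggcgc
MSMO1, chr4:165327566-165327625, plus strand: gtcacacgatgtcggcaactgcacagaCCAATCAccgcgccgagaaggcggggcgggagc
DHCR7, chr11:71448455-71448514, minus strand: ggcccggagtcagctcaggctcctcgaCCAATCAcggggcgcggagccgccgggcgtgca
LSS, chr21:46228894-46228953, minus strand: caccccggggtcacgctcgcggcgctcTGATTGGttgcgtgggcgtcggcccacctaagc
MVD, chr16:88663181-88663240, minus strand: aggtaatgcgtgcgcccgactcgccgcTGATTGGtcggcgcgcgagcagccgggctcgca

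These windows lie at different distances from the start, with the match 69 bases before it in MSMO1 and 150 bases before it in HMGCS1. A match describes letters and is no binding site by itself. No read of these libraries bears on binding.

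The 5 regulators were SREBF1 and SREBF2, which encode the SREBPs, their escort SCAP, and the retention factors INSIG1 and INSIG2. In COLO 320DM and in ABC-1, 4 of the 5 rose, and in RKO, OVCAR-4 and UO-31 it was 3, 2 and 2. None was called lower in any line. SREBF1 was called in every line. In ABC-1 it went from 63.5 and 59.4 to 131 and 136 (1.11 ± 0.05, adjusted p = 2.65e-10), and in COLO 320DM from 19.9 and 18.6 to 27.1 and 27.9 (0.50 ± 0.06, adjusted p = 0.000554). Its rise was smaller in UO-31 (0.30 ± 0.09), OVCAR-4 (0.18 ± 0.05) and RKO (0.17 ± 0.04), and none of these 3 calls held on the deposited scale (adjusted p = 0.582, 0.333 and 0.0585). RAI1, which overlaps SREBF1 on the other strand, rose by 0.31 in UO-31 (adjusted p = 0.0424) and lay between -0.04 and 0.12 in the other lines. The call of SREBF1 in RKO was lost whichever library was left out (adjusted p 0.0798 to 0.193), that in UO-31 without either DMSO library (0.467 and 0.201), and that in OVCAR-4 without the second DMSO or the second G007-LK library (0.0687 and 0.0516).

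SREBF2 rose by 0.39 ± 0.07 in UO-31, 0.36 ± 0.03 in RKO, 0.33 ± 0.06 in COLO 320DM and 0.30 ± 0.06 in ABC-1. Only the call in RKO held on the deposited scale, where the value in ABC-1 was 0.12 (adjusted p = 0.255). In RKO its levels were 31.9 and 31.4 in DMSO and 40.2 and 41.4 with G007-LK. Its value in OVCAR-4 was 0.08 ± 0.04 (adjusted p = 0.107). The UO-31 call needed both DMSO libraries (without the first or the second, adjusted p = 0.0910 and 0.0884). INSIG1, itself a well-known target of the SREBPs, went from 15.0 and 15.6 to 25.8 and 26.8 in COLO 320DM (0.77 ± 0.06, adjusted p = 5.10e-05) and from 12.8 and 13.1 to 18.5 and 19.9 in RKO (0.55 ± 0.04, adjusted p = 0.000218). It rose by 0.31 ± 0.04 in OVCAR-4 and 0.51 ± 0.06 in ABC-1, but was at -0.06 ± 0.07 in UO-31. INSIG2 rose in COLO 320DM (0.34 ± 0.09) and ABC-1 (0.26 ± 0.07), and both calls ended without the first G007-LK library of the line (adjusted p = 0.242 and 0.0607). STARD4, a cytosolic sterol carrier, went from 5.90 and 7.04 to 11.6 and 11.1 in COLO 320DM (0.76 ± 0.09, adjusted p = 0.000400) and from 4.66 and 4.83 to 7.09 and 7.30 in RKO (0.55 ± 0.05, adjusted p = 0.000517). In ABC-1 it rose by 0.26 ± 0.08, a call that ended without the first library of either group (0.179 and 0.114). In OVCAR-4 it was at -0.14 ± 0.06 (adjusted p = 0.0924), and in UO-31 a G007-LK library of 5.51 lay under both controls while the other, at 8.51, lay above them.

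Fatty acid synthesis was represented by ACLY and ACSS2, which supply acetyl-CoA, ACACA and FASN, which make palmitate, ELOVL6, which elongates it, and the desaturases SCD, FADS1 and FADS2. In ABC-1, 5 of the 6 tested rose and ACLY was lower, and the median log2 fold change was 0.36. In COLO 320DM 3 of 8 rose, with a median of 0.05, and in RKO 2 of 7 rose, with a median of 0.10. In UO-31 3 rose and 1 was lower, and in OVCAR-4 2 rose and 4 were lower, with a median of -0.13. FADS1 and FADS2 in ABC-1 and FADS1 in RKO fell below the filter on low values.

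SCD, which makes oleic acid and carried 86689 reads in its deepest library, went from 333.6 and 367.8 to 629.8 and 620.1 in ABC-1 (0.83 ± 0.06, adjusted p = 5.86e-09). In RKO it went from 71.9 and 72.3 to 93.1 and 92.6 (0.36 ± 0.02, adjusted p = 9.97e-05), and in UO-31 from 41.1 and 40.7 to 55.2 and 52.0 (0.39 ± 0.07, adjusted p = 0.00680). The controls were almost equal in RKO and UO-31 and both treated libraries lay above them. The call in UO-31 was lost without either DMSO library (adjusted p = 0.0868 and 0.1004), and that in COLO 320DM (0.20 ± 0.07) without the first DMSO library or either G007-LK library (0.0780, 0.280 and 0.0895). In OVCAR-4 SCD was at 0.08 ± 0.03 (adjusted p = 0.0741).

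FASN, the fatty acid synthase, went from 73.1 and 74.5 to 106 and 109 in ABC-1 (0.54 ± 0.05, adjusted p = 2.91e-07). In RKO its 2 controls at 61.6 and 60.7 faced treated libraries that were both at 73.5 (0.26 ± 0.02, adjusted p = 0.000472). In OVCAR-4 it was lower, from 238 and 232 to 202 and 217 (-0.17 ± 0.04, adjusted p = 0.00456), and in COLO 320DM it was at 0.01 ± 0.05. ELOVL6 rose by 0.55 ± 0.06 in ABC-1. In UO-31 it went from 13.9 and 15.1 to 10.6 and 9.55 (-0.50 ± 0.09, adjusted p = 0.00677), and without the second DMSO library this call was lost (adjusted p = 0.0719). ACSS2 rose in OVCAR-4 (0.23 ± 0.04), UO-31 (0.48 ± 0.09) and ABC-1 (0.19 ± 0.06), of which only the call in OVCAR-4 held on the deposited scale, with 0.40 in UO-31 and 0.006 in ABC-1 (adjusted p = 0.206 and 0.961). The call in UO-31 ended without the first DMSO library (adjusted p = 0.108), and that in ABC-1 without the first DMSO or the second G007-LK library (0.136 and 0.105). ACSS2 overlaps GGT7, whose values were 0.36 in UO-31 and 0.39 in ABC-1. ACLY was lower in OVCAR-4 (-0.22 ± 0.03) and in ABC-1 (-0.18 ± 0.07), where leaving out the second DMSO library (adjusted p = 0.324) or either G007-LK library (0.0713 and 0.0759) ended the call. ACACA was called higher in ABC-1 (0.19 ± 0.07) and lower in OVCAR-4 (-0.14 ± 0.05). The former call ended without the first library of either group (adjusted p = 0.243 and 0.172) and was 0.008 on the deposited scale, and the latter ended whichever library was left out (0.0615 to 0.190).

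FADS1 and FADS2, the Δ5 and Δ6 desaturases of polyunsaturated fatty acids, lie next to each other and overlap on opposite strands. In COLO 320DM both rose, FADS1 from 44.3 and 48.7 to 64.6 and 62.1 (0.44 ± 0.06, adjusted p = 0.00109) and FADS2 from 30.9 and 29.9 to 41.0 and 40.3 (0.41 ± 0.06, adjusted p = 0.000873). FADS2 also rose in UO-31 (0.46 ± 0.07) and OVCAR-4 (0.20 ± 0.04). The call in UO-31 ended without the second DMSO library (adjusted p = 0.0615). FADS1 was at 0.02 ± 0.09 in UO-31 and lower in OVCAR-4 (-0.15 ± 0.04). FEN1, a DNA repair nuclease that overlaps FADS2 on its strand, was at -0.49 in COLO 320DM and -0.82 in UO-31.

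The LXR targets were the cholesterol exporters ABCA1 and ABCG1 and the ubiquitin ligase MYLIP. MYLIP went from 6.55 and 7.55 to 14.01 and 13.62 in ABC-1 (0.93 ± 0.08, adjusted p = 5.77e-08). The UO-31 libraries went from 1.72 and 2.07 to 4.13 and 4.38 (0.99 ± 0.12, adjusted p = 0.00152). In each line both treated libraries lay well above both controls. In OVCAR-4 MYLIP rose by 0.22 ± 0.05 (adjusted p = 0.00493), while in COLO 320DM it was at -0.07 ± 0.11 and in RKO at -0.15 ± 0.07 (adjusted p = 0.652 and 0.286). ABCG1 passed the filter in OVCAR-4 alone, with 1.00 and 0.965 in DMSO and 1.55 and 1.56 with G007-LK (0.47 ± 0.14, adjusted p = 0.0178), from 38 to 62 reads a library. ABCA1 was tested in OVCAR-4 and UO-31. In OVCAR-4 it was at 1.95 and 2.01 in DMSO and at 1.30 and 1.54 with G007-LK (-0.37 ± 0.13, adjusted p = 0.0384), and in UO-31 its groups overlapped (0.14 ± 0.14). Each of the calls of ABCA1 and ABCG1 was lost without the second DMSO library (adjusted p = 0.132 and 0.0675) or the first G007-LK library (0.186 and 0.0653). That of ABCA1 was lost also without the first DMSO library (0.0974), and that of ABCG1 without the second G007-LK library (0.0721). In ABC-1, under the filter, ABCG1 had 7 and 6 reads in DMSO and 22 and 17 with G007-LK, and in RKO it had no read in any library.

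**Figure D3:**
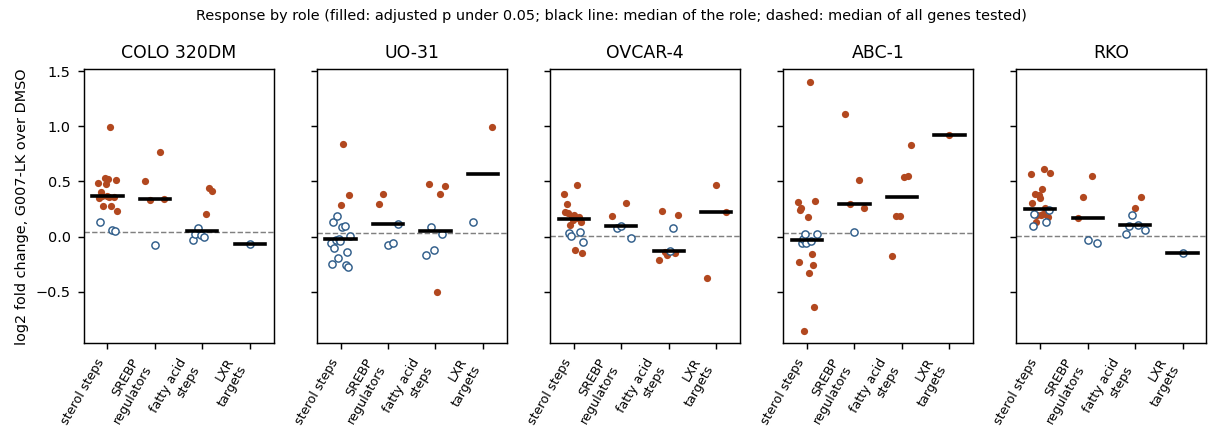
Log2 fold changes of the members by role in each line, filled where the adjusted p was under 0.05, with the median of the role as a black line and the median of all genes tested as a dashed line. The median of the 18 sterol steps lies at 0.36 in COLO 320DM and 0.25 in RKO and near 0 in UO-31 and ABC-1, where the LXR target MYLIP lies at 0.99 and 0.93.

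Other genes of the same pathways were read from lists chosen by function. Of 15 other sterol genes, COLO 320DM had 5 higher and none lower, beside 22.5% and 16.8% of all genes tested. RKO had 3 and 0 (1.65% and 0.922%). ABC-1 had 5 and 4, near its shares of all genes (33.8% and 30.1%). OVCAR-4 had 2 and 4 (25.0% and 22.0%), and UO-31 had 1 and 2 (16.6% and 13.6%). The shares of each line apply as well to the lists that follow. NPC2, a lysosomal cholesterol carrier, rose by 1.03 ± 0.06 in COLO 320DM, 0.51 ± 0.05 in ABC-1, 0.28 ± 0.03 in OVCAR-4 and 0.22 ± 0.03 in RKO. NPC1, its membrane partner, rose by 0.37 ± 0.08 in COLO 320DM and 0.27 ± 0.04 in RKO. TMEM97, a sterol-regulated membrane protein, was lower in ABC-1 (-1.30 ± 0.07), UO-31 (-0.48 ± 0.08) and OVCAR-4 (-0.20 ± 0.04), and LBR, the nuclear envelope protein with sterol C14 reductase activity, was lower in UO-31 (-0.61 ± 0.08), ABC-1 (-0.45 ± 0.06) and OVCAR-4 (-0.34 ± 0.04). LBR and TM7SF2, which have the same enzyme activity, were thus called in opposite directions in these 3 lines.

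Of 7 other genes of the LXR pathway, 4 were tested in each sensitive line and 5 in RKO. In ABC-1, 4 were higher, 1 of them NR1H3, which passed the filter there only through its treated libraries (deposited RPKM of 1.13 and 0.750 in DMSO, 1.25 and 1.43 with G007-LK), and 3 were higher in UO-31, 3 in OVCAR-4, 1 in COLO 320DM and none of the 5 in RKO by limma, where 0 had an unadjusted p under 0.05. LPCAT3, a phospholipid remodeling enzyme and LXR target, rose by 1.25 ± 0.05 in ABC-1, and SMPDL3A, another target, by 1.13 ± 0.07. NR1H3, which encodes LXRα, rose in UO-31 (0.51 ± 0.10) and OVCAR-4 (0.36 ± 0.08), and PLTP, a phospholipid transfer protein, in UO-31 (0.65 ± 0.08), COLO 320DM (0.29 ± 0.07) and OVCAR-4 (0.25 ± 0.03).

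Of 19 other genes of fatty acid synthesis and its supply, all were tested in UO-31, with 2 higher and 0 lower, and in OVCAR-4, with 4 and 5. The counts in OVCAR-4 are near its shares of all genes (25.0% and 22.0%). COLO 320DM had 2 and 2 of 17 tested, ABC-1 had 7 and 3 of 16, and RKO had 2 and 0 of 15. ELOVL5, an elongase of polyunsaturated fatty acids, was lower in ABC-1 (-0.55 ± 0.06) and OVCAR-4 (-0.21 ± 0.04), and LPIN1, a phosphatidate phosphatase, rose in RKO (0.26 ± 0.03) and OVCAR-4 (0.21 ± 0.07). Of 18 genes of fatty acid oxidation, all were tested in COLO 320DM, with 4 higher and 5 lower (22.5% and 16.8% of all genes). ABC-1 had 9 and 4 of 16 tested, OVCAR-4 had 8 and 2 of 17, and UO-31 had 5 and 0 of 17. RKO, where 17 were tested, had none in either direction by limma (4 higher and 0 lower at an unadjusted p under 0.05). CPT1A, which admits fatty acids to mitochondria, rose in COLO 320DM (0.66 ± 0.10) and UO-31 (0.45 ± 0.10), and ACADS, a short-chain dehydrogenase, rose in COLO 320DM (0.27 ± 0.07), UO-31 (0.41 ± 0.10), OVCAR-4 (0.32 ± 0.07) and ABC-1 (0.45 ± 0.08).

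Whether a sensitive line responded differently from RKO was tested as the interaction of line and treatment over 8 libraries. The 4 comparisons share the RKO libraries. In COLO 320DM, 8 of 32 members lay higher than in RKO and 3 lower, beside 15.6% and 13.7% of all genes tested. In ABC-1, 8 of 31 lay higher and 15 lower (25.4% and 28.1%). In UO-31, 4 of 32 lay higher and 14 lower (8.17% and 12.8%), and in OVCAR-4, 3 lay higher and 17 lower (14.2% and 15.9%). In either direction the shares of all genes were 29.3% for COLO 320DM, 53.5% for ABC-1, 21.0% for UO-31 and 30.1% for OVCAR-4. Among the 18 sterol steps, 13 lay lower than in RKO in ABC-1, 11 in UO-31, 9 in OVCAR-4 and 2, MSMO1 and DHCR7, in COLO 320DM. On the deposited scale COLO 320DM had 1 higher and 1 lower call, UO-31 had 2 and 5, and without the first DMSO library of RKO the count in UO-31 was 10.

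TM7SF2 lay above RKO in each sensitive line, by 0.79 in COLO 320DM (adjusted p = 0.000378), 1.20 in ABC-1 (2.60e-07), 0.26 in OVCAR-4 (0.0329) and 0.64 in UO-31 (0.0182). SREBF1 lay above it by 0.94 in ABC-1 (adjusted p = 3.51e-07) and 0.33 in COLO 320DM (0.00664). MYLIP lay above it by 1.14 in UO-31 (adjusted p = 0.000837), 1.07 in ABC-1 (4.80e-06) and 0.37 in OVCAR-4 (0.00493). DHCR7 lay below RKO in each, by -0.34 in COLO 320DM (adjusted p = 0.00294), -0.55 in ABC-1 (8.72e-06), -0.57 in UO-31 (0.000799) and -0.63 in OVCAR-4 (5.23e-06). MSMO1 did so as well, by -0.34, -0.66, -0.52 and -0.45. HMGCS1 differed from RKO by -0.63 in UO-31 (adjusted p = 0.00651), -0.19 in OVCAR-4 (0.0302), -0.26 in ABC-1 (0.0182) and, past no threshold, by -0.08 in COLO 320DM (0.526).

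**Figure D4:**
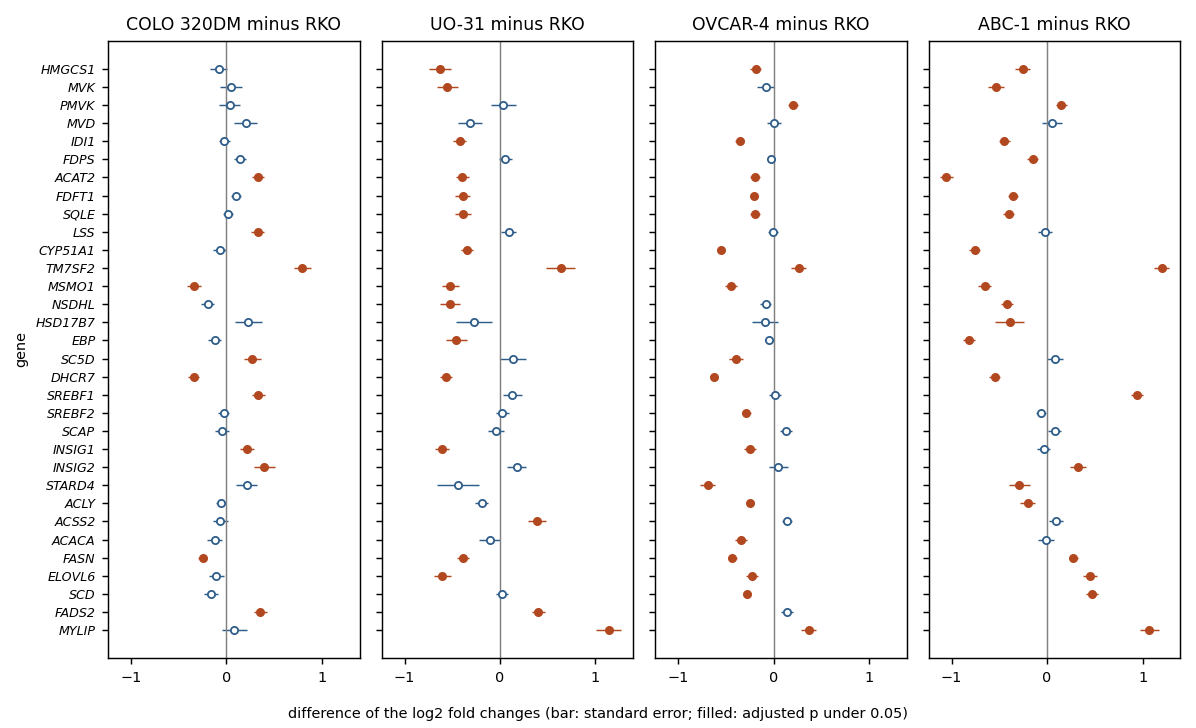
Log2 fold change in each sensitive line minus that in RKO, with its standard error, for the members tested in RKO, filled where the adjusted p was under 0.05. The sterol genes other than TM7SF2 mostly lie left of 0 in ABC-1, OVCAR-4 and UO-31, and on both sides of it in COLO 320DM, and MYLIP lies at 1.14 in UO-31 and 1.07 in ABC-1.

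Of the 32 members tested in both COLO 320DM and RKO, which share no library, 22 were higher in the former, 20 in the latter and 17 in both, which is 77.3% of the 22 and 85% of the 20. Of all 9766 genes tested in both lines, 0.829% were higher in both, which is 3.8% of those higher in COLO 320DM and 54.7% of those higher in RKO. Over all 5 lines, the response differed between lines for 29 of 31 members (moderated F-test of limma over 20 libraries), beside 66.5% of all genes tested. The 2 that did not pass were PMVK (adjusted p = 0.485) and SCAP (0.148). In the 4 sensitive lines together, 16 of 31 members were higher and 1, ACLY, lower, beside 25.9% and 24.6% of all genes, or 50.6% in either direction. After TM7SF2 the largest averages over these lines were those of SREBF1 (0.52 ± 0.10) and MYLIP (0.52 ± 0.12). INSIG1 (0.38 ± 0.08) and SCD (0.38 ± 0.08) followed. SREBF1 ran from 0.18 in OVCAR-4 to 1.11 in ABC-1. The other averages were not rises called in every line. MYLIP was at -0.07 in COLO 320DM, INSIG1 at -0.06 in UO-31 and SCD at 0.08 in OVCAR-4. This fit took the libraries as independent and held no term for lines that respond differently. Its errors and calls therefore do not measure the spread over the 4 lines. On the deposited scale this fit called 7 higher and 3 lower.

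Levels in DMSO were compared with 1 factor per library from all 20 libraries. All 35 members differed between lines, beside 99.2% of all genes tested, which says little about the members themselves. RKO had the lowest mean level for 13 of the 18 sterol steps, among them all 7 mevalonate steps, and lay below the mean of the other lines for 17 of them (50.5% of all genes tested lay below in RKO). The median level of the 18 was 19.9 scaled RPKM in RKO, 38.2 in COLO 320DM, 39.8 in UO-31, 54.5 in ABC-1 and 65.6 in OVCAR-4. DHCR7 spanned the widest range of the sterol genes, with 7.46 ± 0.006 (SD, n = 2) in RKO, 46.9 ± 0.308 in COLO 320DM, 91.6 ± 0.330 in UO-31, 109 ± 0.414 in OVCAR-4 and 114 ± 1.96 in ABC-1. HMGCS1 was highest in ABC-1 (68.9 ± 3.36), followed by OVCAR-4 (57.2 ± 0.877), COLO 320DM (26.8 ± 2.08), UO-31 (22.3 ± 1.19) and RKO (8.95 ± 0.0937). No neighbours in these 2 orders had overlapping libraries. SQLE took another order, lowest in OVCAR-4 (32.7 ± 0.722) and highest in ABC-1 (72.2 ± 0.960), with overlapping libraries in RKO and COLO 320DM. These orders depend on the factors, which were 1.74 and 1.78 for the DMSO libraries of OVCAR-4 and 0.839 to 0.982 for the others. On the deposited scale HMGCS1 was highest in OVCAR-4, at 98.4 and 103 against 60.7 and 70.0 in ABC-1. So was DHCR7, at 190 and 192 against 105 and 111 in ABC-1. SQLE was then lowest in UO-31 (36.5 and 33.1), with 55.9 and 58.9 in OVCAR-4.

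**Figure D5:**
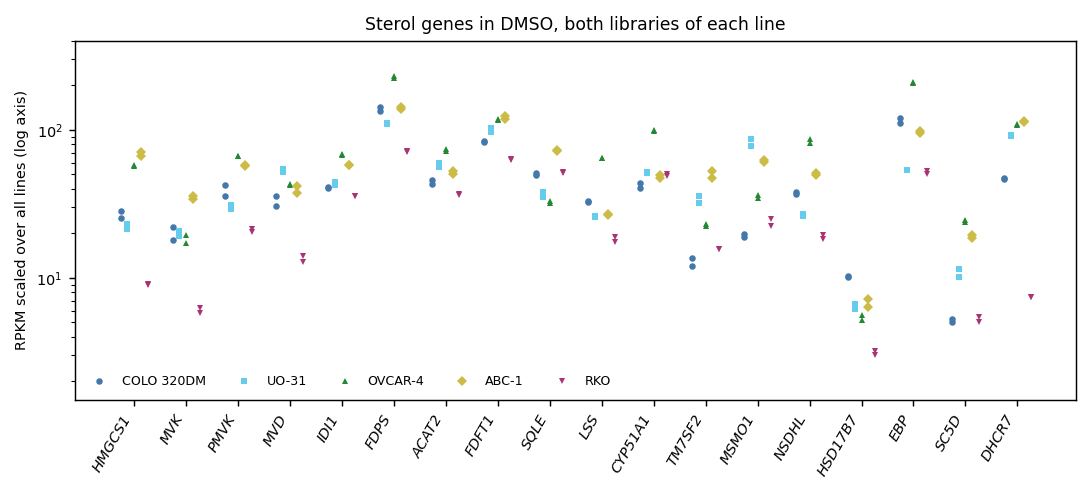
Level of the 18 sterol genes in both DMSO libraries of each line, in RPKM scaled over all lines, on a log axis. RKO is lowest for 13 of the 18, and DHCR7 shows the widest gap, with 7.46 in RKO against 46.9 to 114 in the other lines.

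SREBF1 was at 69.2 ± 3.18 in ABC-1, 8.91 ± 0.544 in UO-31 and 22.2 to 23.2 in the other 3 lines, where COLO 320DM and OVCAR-4 overlapped. SCD was at 395 ± 27.9 in ABC-1, 114 ± 9.03 in COLO 320DM, 81.9 ± 0.348 in RKO, 66.5 ± 1.80 in OVCAR-4 and 44.1 ± 0.340 in UO-31, in which order no neighbours overlapped. These places of OVCAR-4 also depend on the factors. On the deposited scale SREBF1 was at 39.7 and 38.6 in OVCAR-4, against 19.1 and 20.2 in COLO 320DM. SCD was at 114 and 120 in OVCAR-4, above the 90.4 and 113 of COLO 320DM. The desaturase pair also differed between lines. FADS1 was high in COLO 320DM (53.4 ± 4.04), UO-31 (46.6 ± 1.12) and OVCAR-4 (40.6 ± 0.544), but at 0.981 ± 0.128 in ABC-1 and 0.108 ± 0.0651 in RKO, where a library held 7 to 17 reads of it. FADS2 was at 80.3 ± 1.95 in UO-31, 34.9 ± 0.533 in COLO 320DM, 19.1 ± 0.564 in OVCAR-4, 9.83 ± 0.337 in RKO and 0.632 ± 0.0322 in ABC-1. ABCA1 was at 1.18 ± 0.0233 in OVCAR-4, 6.18 ± 0.0816 in UO-31 and at or below 0.0359 in the other lines, with no read in either DMSO library of COLO 320DM. In bulk RNA of a culture, fewer cells that express a gene and less of its RNA per cell cannot be told apart.

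The depth was enough for most members. Over the members tested, the median standard error expected from counting reads alone was 0.03 log2 units in each sensitive line and 0.04 in RKO, against fitted standard errors of 0.04 in OVCAR-4 and RKO, 0.06 in COLO 320DM and ABC-1, and 0.09 in UO-31. HSD17B7, with as few as 111 reads in a library of RKO, had a counting error of 0.13 there, so that its value of 0.14 ± 0.10 could not be told from 0 at this depth. The counting errors given here cover counting only, while the values after ± are the fitted standard errors over libraries.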

How the data were processed

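Poly(A) RNA of 20 cultures was sequenced by the study. The authors mapped clean reads to the hg19 reference gene set with SOAPaligner/SOAP2, allowing at most 2 mismatches, and deposited RPKM values per gene (no source used here gives the aligner's version). The authors' tables of log2 ratios and NOISeq probabilities were not used. A missing value was read as 0. Of 21610 entries, 8 had no symbol and held up to 0.00134% of a library's RPKM. Entries of the 371 repeated symbols were joined. Within each line, values were divided by median ratio factors from genes averaging 5 RPKM or more with no 0, and levels across lines by factors over all 20 libraries. Genes averaging 1 RPKM or more over the 4 libraries of a line were tested as log2(scaled RPKM + 0.5) with limma 3.58.1 (trend and robust, statmod 1.5.0, R 4.3.3), with Benjamini-Hochberg adjustment over all genes tested and a threshold of 0.05. The comparison with RKO used the interaction over 8 libraries, that among lines a moderated F-test over 20, that of DMSO levels 10 libraries, and the common effect 16 libraries with line as a covariate. Genes had to reach that mean in each line compared, and for DMSO levels in at least 1 line. The fit was tested on simulated data. Tables were prepared with Python 3.11.15, pandas 2.3.3 and numpy 2.4.6. Gene coordinates and overlapping genes are those of GRCh37, and promoter windows those of GRCh38.p14.

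Replicates are stated to be biological, with no culture or day named, so p-values measure the spread between these libraries. Correlations of the deviations of same-numbered libraries were -0.252 in COLO 320DM, -0.263 in ABC-1, -0.022 in UO-31, 0.005 in OVCAR-4 and 0.055 in RKO, and the numbers were not taken as pairs. All members are named, and of the other genes those in fixed lists with the largest called change, up to 4 per list and line. The members and lists were chosen with earlier results of these data known. Alternatives were other scalings, pseudocounts of 0.1 and 1, no filter or a mean of at least 5, a replicate block, 1 fit over all lines, a NOISeq-like rule (probability over 0.8) and leaving out each library or line. The reads in genes as library total, voom on recovered reads and a crossed block were added after seeing the data.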

Additional observations from a re-analysis of the deposited data

Results flagged for a closer look

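The response to G007-LK differed between the 5 lines for 29 members (moderated F-test of limma over 20 libraries, adjusted p under 0.05), and each is given here by the highest minus the lowest log2 fold change over the lines. Among the sterol steps this range was 1.38 for ACAT2, highest in COLO 320DM and lowest in ABC-1, and 1.20 for TM7SF2, highest in ABC-1 and lowest in RKO. It was 0.82 for EBP, 0.76 for CYP51A1, 0.66 for SC5D, 0.66 for MSMO1, 0.63 for HMGCS1, 0.63 for DHCR7, 0.62 for HSD17B7 and 0.60 for MVK. Smaller ranges were found for NSDHL (0.52), MVD (0.52), FDFT1 (0.49), IDI1 (0.45), SQLE (0.42), LSS (0.35) and FDPS (0.29). Among the regulators the range was 0.94 for SREBF1, 0.82 for INSIG1, 0.40 for INSIG2 and 0.31 for SREBF2, and it was 0.90 for the carrier STARD4. Among the fatty acid steps it was 1.05 for ELOVL6, highest in ABC-1 and lowest in UO-31, 0.75 for SCD, 0.71 for FASN, 0.45 for ACSS2, 0.34 for ACACA and 0.24 for ACLY. The LXR target MYLIP had a range of 1.14, highest in UO-31 and lowest in RKO.

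Set against RKO alone, the response differed for 11 members in COLO 320DM, 23 in ABC-1, 18 in UO-31 and 20 in OVCAR-4. Groups of 2 libraries are too small to look for single outlying libraries. The part of culture medium and of the level of a gene before treatment in these differences was not tested.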

How the results depend on the processing

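On the deposited RPKM, without scaling, the members called fell to 14 in COLO 320DM and 4 in UO-31, to 10 for the common effect, to 2 for COLO 320DM against RKO and to 7 for UO-31 against RKO. That scale also turned the sign of FDFT1 (-0.16), LSS (-0.0050) and DHCR7 (-0.16) in ABC-1, of FDPS (-0.017) and ACAT2 (-0.12) in OVCAR-4, and of PMVK in ABC-1 against RKO (-0.00943). With 1 fit over 20 libraries, which share 1 spread, 17 were called in UO-31, 16 in OVCAR-4 and 11 in RKO. The NOISeq rule called 14 in OVCAR-4, and without a filter on low values 12 were called in RKO. The voom counts split as 8 higher and 5 lower in UO-31. Why these counts moved was not tested.

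Leaving out 1 library gave 18 to 23 members in COLO 320DM, 17 to 22 in ABC-1, 3 to 24 in UO-31, 16 to 22 in OVCAR-4 and 12 to 15 in RKO. It gave 14 to 19 for the common effect, 25 to 31 for the difference among lines, and against RKO 8 to 14 for COLO 320DM, 17 to 20 for ABC-1, 10 to 24 for UO-31 and 15 to 20 for OVCAR-4. The lone library left in a group was assumed to vary like the other group. Over single members, leaving out a library kept 1928 results, ended 200 calls, added 44 and reversed 0. The other settings kept 3465, ended 227, added 66 and reversed 6.

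The replicate block, whose pairing the libraries did not show, called 22 members in COLO 320DM, 19 in ABC-1, 13 in UO-31, 25 in OVCAR-4, 19 in RKO and 14 for the common effect. Against RKO it called 8, 18, 18 and 20 for COLO 320DM, ABC-1, UO-31 and OVCAR-4, and 24 among the lines. With the numbers crossed, 24 were called in COLO 320DM and 24 in ABC-1.

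Depth limits ABCA1, ABCG1, FADS1 and FADS2 most. Just inside the filter lay ABCG1 (mean RPKM 1.26) and ABCA1 (1.72) in OVCAR-4, and just outside it FADS2 (0.654) and FADS1 (0.648) in ABC-1.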
